A study of Mus musculus with 4 samples.

Results

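Cytosolic ribosomal protein genes encode the protein building blocks of the ribosome outside mitochondria. They were followed here in mouse embryonic stem cells with and without Suz12. Members were taken by symbol: every probe set whose only gene symbol was Rpl or Rps plus a number, with l and x forms, Rplp0, Rplp1, Rplp2 and Rpsa, leaving out Rps6k kinases and pseudogene symbols. This gave 105 probe sets of 45101 on the array, for 49 genes of the 18193 with a probe set of their own. Of these genes, 26 belong to the large and 23 to the small subunit. A further 110 probe sets name a ribosomal protein gene together with other symbols and stay outside this choice.

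The series compares 2 genotypes of embryonic stem cells, WT and Suz12KO, on 2 Affymetrix arrays each. The Suz12 protein belongs to the core of the Polycomb complex PRC2, whose enzyme methylates histone H3. Each genotype is represented by 3 clones, whose separately prepared RNA went in equal parts into a single pooled sample, per the labels. Whether both arrays of a genotype took RNA from that same pool is not stated. P-values therefore measure only the spread between arrays, which may be technical, and the spread between clones is not measured. The labels name no strain, knockout allele or feeder layer.

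Ribosomal proteins are made in nearly equal amounts and assembled in the nucleolus with ribosomal RNA. Their messenger RNAs are among the most abundant of a growing cell. Most begin with a C followed by a run of pyrimidines, the 5' terminal oligopyrimidine tract, through which mTOR signalling sets how well they are translated. Several have paralogs used in particular tissues, such as Rpl39l in the male germ line and Rpl3l in striated muscle. Embryonic stem cells grow fast, and ribosome production is a known feature of that state.

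The targeted gene read 1097 and 1094 in WT, against 217 and 369 in Suz12KO. All 10 embryonic stem cell markers examined passed the test as higher in Suz12KO (4.48% of all tested genes did), 8 of them also after the centring described below, with summed signals of 66305 to 66771 in WT and 121673 to 124629 in Suz12KO. Of 10 fibroblast markers listed, 9 were on the array and 4 were bright enough to test. The collagens Col1a1, Col1a2 and Col3a1 fell (5.5% of all tested genes did), while the fourth, Thy1, had a log2 fold change of 0.41 and did not pass. The summed signal of the 9 was 5733 and 6105 in WT, against 2174 and 1567 in Suz12KO, and no marker was listed at 0. The 3' to 5' signal ratio of Gapdh was 0.807 and 0.756 in WT, against 0.889 and 0.871 in Suz12KO, and that of Actb was 1.15 and 1.16, against 1.14 and 1.14. The part of these differences in the results below was not tested. If the cultures held several cell types, fewer cells of a type and less RNA per cell could not be told apart.

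As deposited, the ribosomal protein genes were mostly slightly higher in Suz12KO. Of 49 genes, 47 passed the filter on dim genes; Rpl3l and Rps16 did not. Of the 47, 18 rose and 0 fell by limma at a Benjamini-Hochberg adjusted p under 0.05, 32 had an unadjusted p under 0.05 (23.3% of all tested genes), and 29 did not pass. Over all 12735 genes tested, 4.48% were called higher and 5.5% lower. The median log2 fold change (Suz12KO minus WT) of the members was 0.18, with quartiles of 0.11 and 0.25, against 0.04 for all tested genes. Above 0 lay 44 of the 47, against 53.5% of all tested genes. In 38 of the 47 both Suz12KO arrays read above both WT arrays, which held for 29% of all tested genes, and in 3 both read below, against 23.9%.

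The median log2 level of the 47 genes was 15.10 on each WT array, against 15.29 and 15.34 for Suz12KO. Both Suz12KO arrays stood above both WT arrays, and the step between genotypes was larger than that between arrays of a genotype. After the centring described below it was not: the medians were 15.15 and 15.16 in WT, against 15.20 and 15.31 in Suz12KO, and for the large subunit Suz12KO replicate 1 (15.08) lay below WT replicate 1 (15.09). These probe sets made up 3.80% and 3.78% of the summed signal in WT and 4.11% and 4.23% in Suz12KO. Without the mean-variance trend, limma called 0 of the 12735 genes and 0 members, with 2332 genes and 2 members at an unadjusted p under 0.05. Without Suz12KO replicate 2, 11 members were called higher (3.58% of all tested genes) and 1 lower (5.81%). Without WT replicate 2, 10 were called higher (3.2%) and 0 lower (3.07%). With no filter on dim genes 10 were higher (2.54%) and 0 lower (3.16%), and averaging all probe sets per gene left 12 higher (2.39%) and 0 lower (2.4%). Only 24 members had a testable probe set without an s, x or a suffix. Of these 24, 4 were higher (3.5%) and 0 lower (4.46%), with a median of 0.18.

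The size of this rise depends on how the arrays are set level. The deposited values share 1 trimmed mean per array, but the median array signal was 175 and 171 in WT, against 202 and 191 in Suz12KO. Centring each array on the median of its probe sets with 1 symbol lowered every fold change by 0.11 on the log2 scale. After it the median of all tested genes was -0.07 and that of the members 0.08. Then 3 members were called higher (2.91% of all tested genes) and 2 lower (7.8%), 35 of 47 lay above 0 (43.3% of all tested genes), and 19 had both Suz12KO arrays above both WT arrays, against 20.6%. The 4 members with both below compare with 32.2% of all tested genes. The distance of the members' median from that of all genes is the same before and after, since centring moves all genes alike. Quantile normalization left 4 members called higher (5.03% of all tested genes) and 1 lower (4.91%), with a member median of 0.04. Centring on the median of all probe sets left 2 higher (2.31%) and 2 lower (9.76%), with a member median of 0.01.

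**Figure D1:**
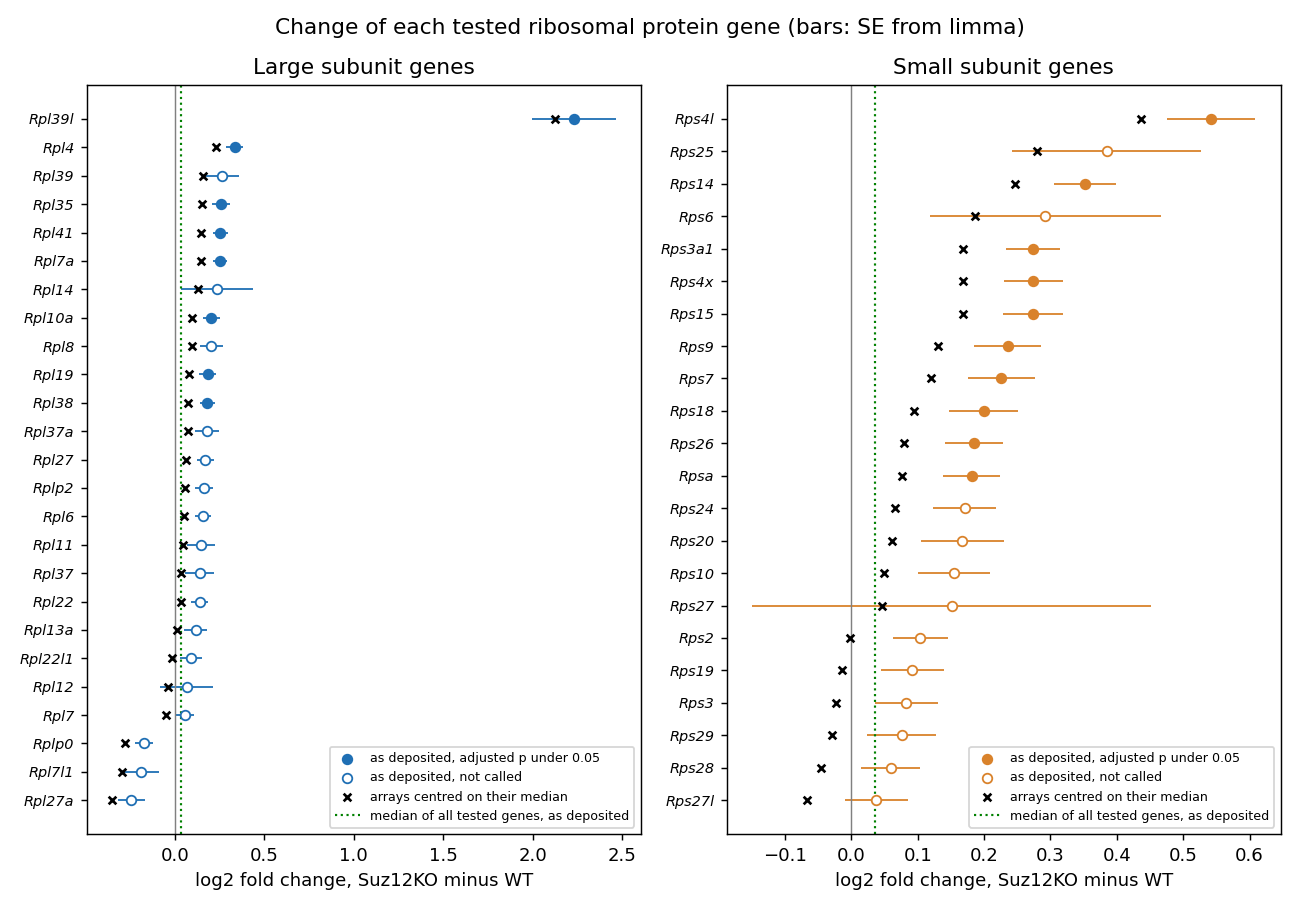
Log2 fold change (Suz12KO minus WT) of each of the 47 tested ribosomal protein genes, with large subunit genes on the left and small subunit genes on the right; the horizontal axes differ. Circles with SE bars are the deposited values, filled where the adjusted p is under 0.05, crosses are values after centring each array on its median, and the dotted line is the median of all tested genes (0.04). Most circles lie between 0 and 0.4, apart from Rpl39l at 2.23, Rps4l at 0.54 and 3 large subunit genes below 0.

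The members lie near the top of the array's range. Of the 47 probe sets that represent a gene, 35 had a mean signal above the 99th percentile of all probe sets, and the highest signal of any probe set was 67087 to 81002 per array. Among the 92 other genes at or above the lower quartile of the members' levels, the median log2 fold change was 0.07. Of the 92, 22 were called higher (4.48% of all tested genes) and 7 lower (5.5%). Centring the arrays on those genes left 8 members higher (3.33% of all tested genes) and 2 lower (8%), with a member median of 0.09. This reference was chosen after seeing the data.

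**Figure D2:**
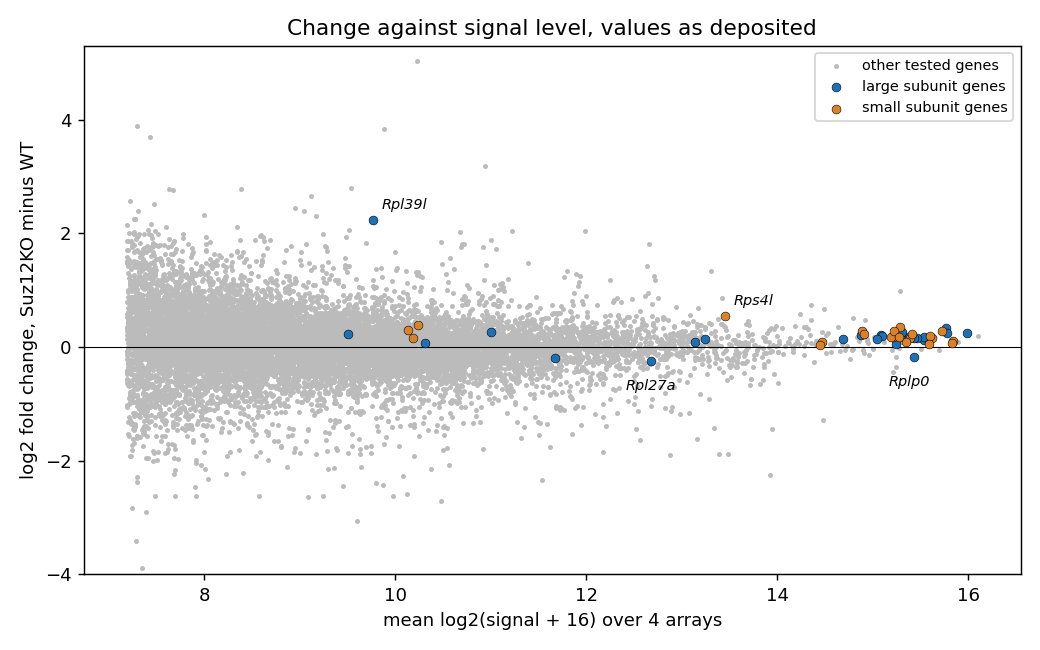
Log2 fold change (Suz12KO minus WT, values as deposited) against the mean log2(signal + 16) over 4 arrays, with large subunit genes in blue, small subunit genes in orange and all other tested genes in grey. Most members form a tight group at the bright end just above 0, and Rpl39l stands far above it at a lower signal.

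Rpl39l, the paralog of the large subunit protein Rpl39 known from the male germ line, changed most. Its signal was 364 and 409 in WT, against 1461 and 2395 in Suz12KO. All 4 readings lay above the highest unused spike probe set of any array (195), and the genotypes did not overlap. The log2 fold change was 2.23 (SE 0.23, limma adjusted p = 0.00036), and 2.13 after centring (adjusted p = 0.00024). Leaving out 1 array at a time gave 1.88 to 2.58, each called. The symbol has a single probe set, without the s, x or a suffix that marks probe sets able to detect several transcripts. The X-linked parent gene Rpl39 read 1892 and 1840 in WT, against 2267 and 2214 in Suz12KO, a log2 fold change of 0.26 (SE 0.10, adjusted p = 0.148) that did not pass. Within each array, where scaling cancels, the Rpl39l log2 signal minus that of Rpl39 was -2.33 and -2.13 in WT, against -0.63 and 0.11 in Suz12KO. This difference moved by 1.97 between genotypes, without overlap (exact permutation test, two-sided, p = 0.333, the smallest that 2 against 2 arrays allow).

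Because this pair parted most, the 250 bases before each RefSeq start (GRCm38.p6) are shown, with GGAAG and its reverse complement CTTCC, the core of ETS factor sites, in capitals. The first lies at chr16:10169978-10170227 on the plus strand and the second at chrX:37085223-37085472 on the minus strand.
Rpl39l: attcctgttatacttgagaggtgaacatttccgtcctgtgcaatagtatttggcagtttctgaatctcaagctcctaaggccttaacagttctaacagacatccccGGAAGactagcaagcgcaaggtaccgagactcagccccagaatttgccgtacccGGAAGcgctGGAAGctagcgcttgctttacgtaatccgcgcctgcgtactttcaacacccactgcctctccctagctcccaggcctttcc
Rpl39: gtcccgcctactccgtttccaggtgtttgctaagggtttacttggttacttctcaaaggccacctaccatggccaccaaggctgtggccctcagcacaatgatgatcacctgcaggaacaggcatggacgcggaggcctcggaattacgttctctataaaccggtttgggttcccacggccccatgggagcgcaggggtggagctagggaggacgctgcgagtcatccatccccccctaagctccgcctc

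The Rpl39l stretch holds these letters 3 times and the Rpl39 stretch 0 times, but the Rpl39 window that runs 50 bases past the start holds them too. Each stretch holds 12 CG dinucleotides. A window of 300 bases, from 250 before to 50 after the start, was present for 43 of the 49 members, in 51 windows. GGAAG on either strand was in a window of 39 of the 43 (90.7%), Rpl39l and Rpl39 included, against 73.9% of all 27025 genes with a window. GGGCGG on either strand, the core of Sp1 sites, was in 58.1% against 38.2%, and AAGATGG on either strand, as found in YY1 sites, in 18.6% against 7.28%. None of these motifs contains another. The windows held a median of 22 CG dinucleotides, against 7 over all windows. These are counts of letters, not of bound sites.

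The pyrimidine tract can be seen at the starts of members that moved differently. Of the 43 members with a window, 8 (18.6%) had a C at the RefSeq start itself followed by at least 4 pyrimidines, against 3.01% of all genes. Annotated starts are often a few bases off. Looking for a tract that begins within 15 bases of the start, a rule added after seeing the sequences, found one in 31 members (72.1%), against 44.9% of all genes. Capitals mark the longest such tract within the bases shown. These are 15 bases before and 15 after the start (GRCm38.p6), for members on both sides of 0, the stalk genes Rplp0 and Rplp2, and the Rpl39 pair. They lie at chr7:109519180-109519209 (plus), chr9:64173372-64173401 (plus), chr7:141447636-141447665 (plus), chr16:10170213-10170242 (plus), chrX:37085208-37085237 (minus), chr5:115559452-115559481 (plus), chrX:102189377-102189406 (minus) and chr3:86142654-86142683 (minus).
Rpl27a: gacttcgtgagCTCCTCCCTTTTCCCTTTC
Rpl4: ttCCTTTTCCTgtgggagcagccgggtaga
Rplp2: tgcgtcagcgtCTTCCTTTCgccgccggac
Rpl39l: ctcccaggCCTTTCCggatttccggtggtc
Rpl39: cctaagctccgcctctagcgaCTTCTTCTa
Rplp0: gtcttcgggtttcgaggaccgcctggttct
Rps4x: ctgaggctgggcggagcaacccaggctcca
Rps3a1: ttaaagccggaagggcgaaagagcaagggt
Members with a tract were seen in both directions. Rplp0 counts among the 31 above, since its tract reaches past the printed bases. Rpl27a and Rplp0, each with a tract, both read lower in Suz12KO, as did Rpl7l1, with none found. None of these was called as deposited. Rpl4, with one, rose, as did Rps3a1 and Rps4x, with none found within 15 bases of the annotated start. The calls of Rpl4, Rps3a1 and Rps4x were lost after centring on the array median. Whether tract and direction go together was not tested.

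Among large subunit genes, 8 of 25 rose (4.48% of all tested genes did) and 17 were not called. The median was 0.17. After centring 1 was called higher (2.91%) and 2 lower (7.8%). Rpl4, which lines the peptide exit tunnel, went from 51718 and 47609 in WT to 62886 and 62283 in Suz12KO. The arrays of the genotypes were well apart, with a log2 fold change of 0.33 (SE 0.05, limma adjusted p = 0.0026). After centring the Rpl4 call was lost (0.23, adjusted p = 0.0557). The other large subunit genes called besides Rpl39l were Rpl35, Rpl41, Rpl7a, Rpl10a, Rpl19 and Rpl38, with log2 fold changes of 0.18 to 0.26.

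Rplp0, Rpl27a and Rpl7l1 were the large subunit members with both Suz12KO arrays below both WT arrays (23.9% of all tested genes). Rplp0, the protein on which the ribosomal stalk is built, read 45332 and 48836 in WT, against 41246 and 42411 in Suz12KO. Its log2 fold change was -0.17 (SE 0.05, limma adjusted p = 0.066), and after centring it was called lower at -0.28 (adjusted p = 0.033). Rplp2, which binds to the stalk base as a dimer with Rplp1, read 41634 and 42290 in WT, against 45169 and 48952 in Suz12KO. Rplp0 and Rplp2 thus lay on opposite sides of 0 as deposited, but neither passed. Rplp2 changed by 0.16 (limma adjusted p = 0.076), and by 0.06 after centring. The third stalk gene, Rplp1, had no probe set with it as the only symbol. Rplp0 is widely used as a reference gene in expression assays.

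Rpl27a read 6966 and 7309 in WT, against 5711 and 6364 in Suz12KO, a log2 fold change of -0.24 (SE 0.08, limma adjusted p = 0.079). After centring it was called lower at -0.35 (adjusted p = 0.037). Quantile normalization did not call Rpl27a (-0.215, limma adjusted p = 0.097), and the 1 member called lower there was Rplp0. The second Rpl27a probe set read 22.5 to 47.4, within the range of the unused spikes. Rpl7l1, a relative of Rpl7 found in precursors of the large subunit, read 3327 and 3604 in WT, against 2821 and 3272 in Suz12KO. It did not pass (-0.19, adjusted p = 0.298; -0.29 after centring), and its other 2 probe sets changed by -0.03 and -0.05.

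Among small subunit genes, 10 of 22 rose (4.48% of all tested genes did) and 12 were not called. The median was 0.18, and 0 of the 22 lay below 0 as deposited. After centring 2 were called higher (2.91%) and 0 lower (7.8%), and 16 of 22 lay above 0. Rps14, a protein of the platform near the decoding site, read 34839 and 35935 in WT, against 46234 and 44158 in Suz12KO. It changed by 0.35 (SE 0.05, limma adjusted p = 0.0014) and kept its call after centring (0.25, adjusted p = 0.033), but not after centring on the median of all probe sets (0.19, adjusted p = 0.117). A second Rps14 probe set changed by 0.19. Rps3a1 went from 49337 and 49144 to 59305 and 59790, a change of 0.27 (SE 0.04, adjusted p = 0.0027) whose call was lost after centring (0.17).

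Rps25, a small subunit protein used by several viral entry sites for translation, had a dimmer probe set, at 1021 and 1060 in WT, against 1479 and 1256 in Suz12KO. Its log2 fold change of 0.38 did not pass (SE 0.14, limma adjusted p = 0.136). The remaining called genes of this subunit, Rps15, Rps9, Rps7, Rps18, Rps26 and Rpsa, had log2 fold changes of 0.18 to 0.27. The smallest values of the subunit were those of Rps27l (0.04), Rps28 (0.06) and Rps29 (0.08), none of which passed, and all 3 turned negative after centring (-0.07, -0.05 and -0.03).

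Rps4l and Rps4x form the second pair in which the l form read higher against its parent in Suz12KO. Rps4x is the X-linked gene of the small subunit protein S4, and RefSeq lists Rps4l as a transcribed pseudogene, while the other 48 members are protein coding there. Rps4l read 9577 and 9002 in WT, against 12918 and 14164 in Suz12KO. It rose by 0.54 (SE 0.07, limma adjusted p = 0.00095), by 0.44 after centring (adjusted p = 0.0072), and by 0.48 to 0.61 when 1 array was left out, called each time. Rps4x read 35052 and 34790 in WT, against 41489 and 42980 in Suz12KO, a rise of 0.27 (SE 0.04, adjusted p = 0.0045) not called after centring (0.17, adjusted p = 0.16). Within an array, Rps4l minus Rps4x was -1.87 and -1.95 in WT, against -1.68 and -1.60 in Suz12KO, a step of 0.27 without overlap (exact permutation test, two-sided, p = 0.333, again the smallest possible). Cross-binding of Rps4x transcripts to the Rps4l probes was not tested.

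**Figure D3:**
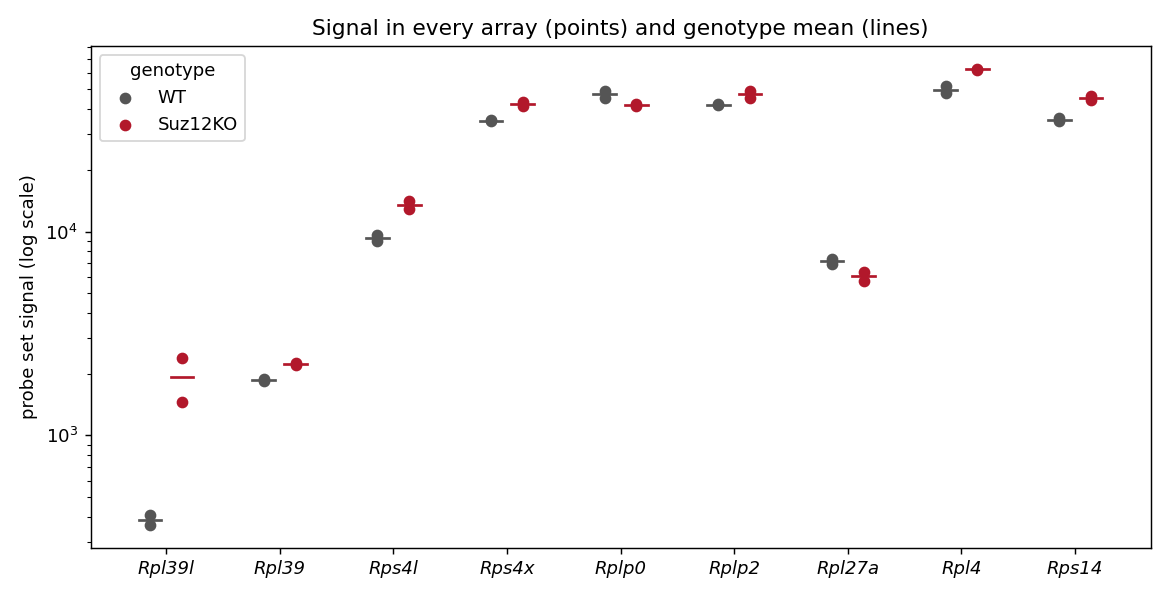
Deposited probe set signal on a log axis in every array (points) with the genotype mean (short lines), WT in grey and Suz12KO in red. Levels of different genes cannot be compared, since each probe set responds differently. Within a gene, the arrays of the genotypes do not overlap for any of the 9 genes shown, and the gap is widest for Rpl39l. Of all tested genes, 29% had both Suz12KO arrays above both WT arrays and 23.9% had both below. The 9 genes were picked from the named genes.

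Of the other pairs, Rpl22 and its paralog Rpl22l1, both large subunit proteins, had log2 fold changes of 0.14 and 0.09. Their difference within an array moved by -0.05. Rpl7 changed by 0.06, and Rpl7l1 minus Rpl7 within an array was -3.54 and -3.37 in WT, against -3.74 and -3.65 in Suz12KO. That step of -0.24 was without overlap and close in size to that of the Rps4 pair (exact permutation test, two-sided, p = 0.333). Rps27 read 1022 and 1168 in WT but 813 and 1810 in Suz12KO. The Suz12KO arrays lay on both sides of WT, so its value of 0.15 (SE 0.30) is poorly measured, and leaving out Suz12KO replicate 1 or 2 gave 0.72 (limma adjusted p = 0.023, a call) or -0.42. Its paralog Rps27l, a p53 target, was steady at 21972 and 22318 in WT against 22690 and 22778. Rpl3l read 79.2 and 10.9 in WT, against 142 and 26.4 in Suz12KO, no brighter than unused spikes reached, and no change can be given.

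Several probe sets of 1 gene often gave different values. Of the 105 probe sets, 98 had a mean signal above the unused spikes, and their median log2 fold change was 0.16, with a range of -0.55 to 2.23. It was 0.18 for the 28 without a suffix, 0.17 for 28 with the suffix a, 0.24 for 3 with s and 0.12 for 39 with x. When all probe sets were tested as separate features, 24 of 99 tested were called higher and 0 lower, against 2.82% and 3.99% of all probe sets. The probe set used here carried an s, x or a suffix in 32 of 47 genes. The suffixes differ in meaning, so this is not a count of genes open to cross-reaction. Signal from near-identical processed copies cannot be told apart from that of the genes.

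Of the 20 genes with several probe sets above the spikes, 12 had them on both sides of 0 after centring. In Rps10, Rps9 and Rpl35 they lay at least 0.5 apart. For Rps10, a protein of the small subunit head, the one used read 46527 and 48955 in WT, against 50715 and 55653 in Suz12KO (log2 fold change 0.15). Another with suffix x read 3764 and 5232 in WT, against 2665 and 3416 in Suz12KO (-0.55). For Rps9 the values were 0.24 for the one used, which was called, 0.36 for one without suffix and -0.31 for one with suffix x. The Rps9 call was lost after centring (0.13, limma adjusted p = 0.314) and without WT replicate 2 or Suz12KO replicate 2 (0.21 and 0.19). As deposited, the 6 Rpl35 probe sets ran from 0.10 to 0.67, the largest being the dimmest, at 188 and 200 in WT, against 325 and 313 in Suz12KO. After centring only the lowest fell below 0, at -0.0017. Rps18 had 3 bright probe sets at 0.20, 0.39 and 0.49, of which the brightest gave the smallest value.

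Genes that work with the ribosome shifted less in the median. Fau, whose product is cut to yield the small subunit protein S30, was outside the symbol rule and rose by 0.35 (SE 0.07, limma adjusted p = 0.012), a call lost after centring (0.24, adjusted p = 0.069). The shares to read the lists below against are 4.48% of all tested genes higher and 5.5% lower, and 2.91% and 7.8% after centring. Of 28 other messenger RNAs known for a terminal pyrimidine tract, 5 rose, 1 fell and 22 were not called. Their median log2 fold change was 0.11. Ipo5, a nuclear import receptor, rose by 0.40 and the helicase subunit Eif4a2 by 0.38, while the poly(A)-binding protein Pabpc1 fell by 0.18. After centring 1 was called higher (Ipo5) and 1 lower (Pabpc1).

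Of 50 translation factors, 5 rose, 3 fell and 42 were not called, and after centring 1 was called higher and 3 lower. The median was 0.06. Eif2s2, the beta subunit of the factor that brings the initiator tRNA, rose by 0.74 (SE 0.06), from 16047 and 16345 to 26120 and 28217. The cap-binding protein Eif4e3 fell by 1.42 (SE 0.32) and the scaffold Eif4g3 by 0.56. This list shares Eif4a2 and other members with the one before.

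Of 67 genes of ribosome biogenesis and RNA polymerase I, 5 rose and 62 were not called, and after centring 1 was called higher and 1 lower. The median was 0.11. The large assembly ATPase Mdn1 rose by 0.56 and Utp15, a factor of small subunit assembly, by 0.46, but neither was called after centring. Of the 76 mitochondrial ribosomal protein genes, which build the separate ribosome of mitochondria, 4 rose and 72 were not called, near the share of all tested genes. After centring 3 were called higher and 1 lower. The median was 0.08. Mrps24 rose by 0.76 (SE 0.14) and Mrps28 by 0.63 (SE 0.14). The cytosolic ribosomal protein genes had the highest median of these lists, a comparison that was not tested.

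**Figure D4:**
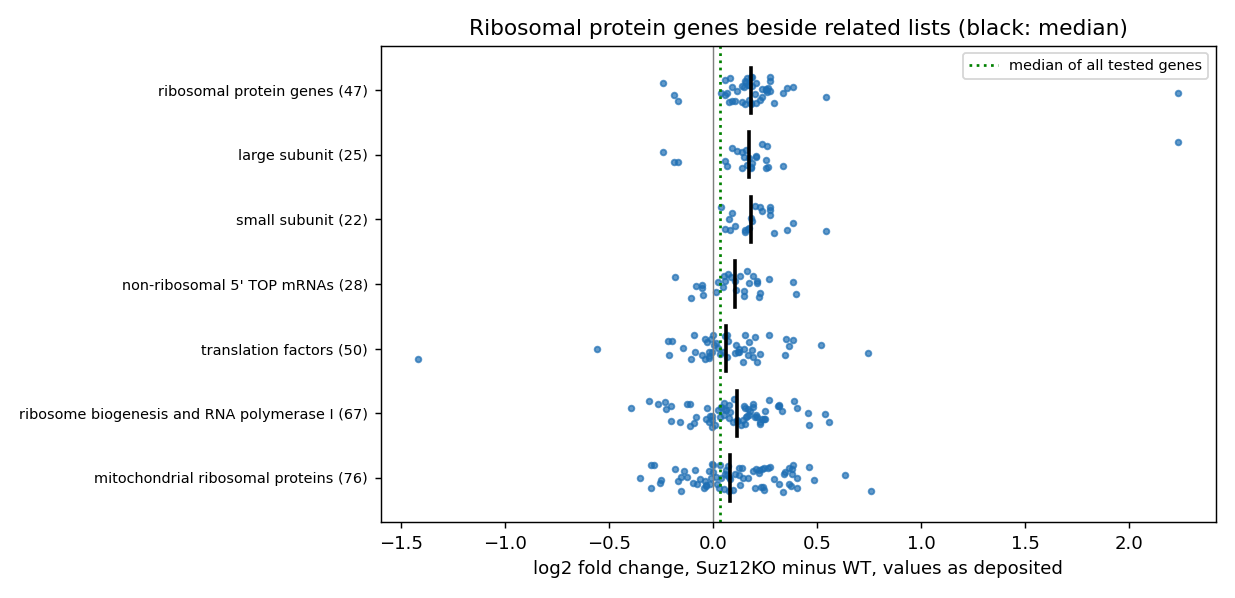
Log2 fold change (Suz12KO minus WT, values as deposited) of each tested gene in the ribosomal protein lists and 4 related lists, with the number tested in parentheses, black bars for medians and a dotted line for the median of all tested genes (0.04). The ribosomal protein genes, at a median of 0.18, have an interquartile range of 0.11 to 0.25, narrower than that of each of the 4 related lists, whose medians are 0.06 to 0.11.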

How the data were processed

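The 4 arrays, 2 per genotype, were compared. The authors' deposited values are probe set intensity on a linear scale; the labels name no summarisation software. Without the lowest and highest 2% of values the mean was 500.003 in every array, so the intensity had been scaled. Symbols came from the platform annotation, and all 49 member symbols matched RefSeq (GRCm38.p6). Values were taken as log2(signal + 16). Where a gene had several probe sets the brightest was used (18193 genes), and the 12735 at or above the 30th percentile of mean level were tested. The test was limma's (version 3.58.1, R 4.3.3; lmFit, then eBayes with its trend option). P-values were two-sided, adjusted by Benjamini-Hochberg over the 12735 genes, and a gene was called at 0.05. Background was judged from 27 bacterial spike probe sets taken as unused. The procedure was tested on simulated data. Members and lists were chosen with earlier results of these data known. Named genes were called members (the 6 largest where over 12), the 3 highest and 3 lowest of each subunit, paralog pairs, stalk and X-linked genes, members whose probe sets above the spikes lay on both sides of 0 after centring and at least 0.5 apart, and per related list the 2 largest called changes each way; Rps18 was named after seeing values. Other called members are given by name and range. Alternatives are given in the closing section. Figures used matplotlib 3.10.9 in Python 3.11.15.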

Additional observations from a re-analysis of the deposited data

How the results depend on the processing

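The deposited scaling gave 18 members called higher and 0 lower, and median log2 fold changes of 0.18 (all), 0.17 (large subunit) and 0.18 (small subunit). Centring on the array median gave 3 higher and 2 lower, with medians of 0.075, 0.065 and 0.078, left 35 members above 0 instead of 44, and among the named genes turned Rps27l (-0.068), Rps28 (-0.046), Rps29 (-0.029), Rpl7 (-0.049) and Rpl22l1 (-0.013) negative. Quantile normalization gave 4 higher and 1 lower, medians of 0.041, 0.048 and 0.027, and negative values for Rps27l (-0.045), Rps28 (-0.11), Rps29 (-0.065), Rpl7 (-0.11), Rpl22 (-0.0045), Rplp2 (-0.012) and Rps10 (-0.0296). The other 2 scalings were chosen after seeing the data. Centring on all probe sets gave 2 higher and 2 lower, medians of 0.013, 0.0032 and 0.015, and negative values for Rps27l (-0.13), Rps28 (-0.11), Rps29 (-0.091), Rpl7 (-0.11), Rpl22 (-0.028), Rpl22l1 (-0.075), Rps27 (-0.016), Rplp2 (-0.0033) and Rps10 (-0.013). Centring on equally bright genes gave 8 higher and 2 lower, medians of 0.089, 0.079 and 0.091, and negative values for Rps27l (-0.054), Rps28 (-0.033), Rps29 (-0.016) and Rpl7 (-0.036). Without the filter on dim genes 10 were called higher. Probe sets without a suffix, with 24 members tested, gave 4 higher, a small subunit median of 0.28 and -0.046 for Rpl22. The mean of probe sets gave 12 and eBayes without the trend gave 0. Leaving out 1 array gave 10 to 22 higher (13 without WT replicate 1, against 3.61% of all tested genes, and 22 without Suz12KO replicate 1, against 3.34%) and 0 to 1 lower, with medians of 0.14 to 0.22 (all), 0.14 to 0.22 (large) and 0.16 to 0.24 (small). Rpl7 then ranged from -0.0066 to 0.12 and Rps27 from -0.42 to 0.72, each negative only without Suz12KO replicate 2. The replicate block gave 29 higher (7.98% of all tested genes) and 2 lower (8.5%), but arrays with the same number deviated together by a correlation of only 0.015, so the numbers do not pair the arrays. The cause of these changes was not tested. With 2 arrays per genotype, their number limits the precision.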

Other observations

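Of the 110 probe sets that name a ribosomal protein gene together with other symbols, 101 had a mean signal above the unused spikes. Their median log2 fold change was 0.19 as deposited and 0.09 after centring. As deposited, 93 of the 101 lay above 0, against 53.5% of all tested genes.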
